A study of Mus musculus with 9 samples.

Results

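The genes described here are those whose symbols begin with Aldh, Adh, Akr, Cbr or Aox followed by a digit, which are the families of aldehyde dehydrogenases, alcohol dehydrogenases, aldo-keto reductases, carbonyl reductases and aldehyde oxidases. This naming rule took 51 of the 23607 genes counted in the olfactory epithelium (OE): 20 Aldh, 6 Adh, 17 Akr, 4 Cbr and 4 Aox genes. The rule uses names and no measured value. The RNA came from 9 C57BL/6 mice, 3 exposed for 1 hr to distilled water (control), 3 to 1% heptanal and 3 to 100% heptanal, an aliphatic aldehyde that is itself an odorant. Each group held 1 mouse of postnatal day 22 (replicate 1), 1 of day 21 (replicate 2) and 1 of day 18 (replicate 3), and the study's methods state that the mice of a replication were littermates of the same sex. An antibody against phosphorylated ribosomal protein S6 (pS6) was used to pull down ribosomes with their mRNA, so every level below is a share of the captured RNA and not of the whole tissue.

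Aldehydes can be cleared in either of 2 chemical directions. Aldehyde dehydrogenases (ALDHs, using NAD or NADP) and the molybdenum-containing aldehyde oxidases (AOXs) oxidize an aldehyde to a carboxylic acid. Alcohol dehydrogenases (ADHs), aldo-keto reductases (AKRs) and carbonyl reductases (CBRs) can reduce it to an alcohol. The nasal epithelium is rich in such enzymes, and its sustentacular cells, the supporting cells around the olfactory sensory neurons (OSNs), are known for high levels of xenobiotic-metabolizing enzymes. No enzyme activity was measured in these samples, so the role given beside each gene is background.

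Libraries held between 5438494 and 9707592 counts. In total, 39 of the 51 genes had a count in every mouse and 8 had none in any mouse. The 5 OSN markers Omp, Adcy3, Ano2, Cnga2 and Gnal were present in all 9 mice, as were the 8 sustentacular markers, so the RNA carried both cell types. The replicate 1 mice stood apart in all 3 groups: over 14798 genes the log2 difference between replicate 1 and replicate 3 correlated with the GC content of the transcript at Pearson's r = 0.447 in control, 0.514 in 1% and 0.38 in 100% heptanal, as a description across genes that share each library. The 1% heptanal mouse of replicate 2 showed the same (r = 0.378), whereas the corresponding control and 100% mice did not (0.0523 and -0.00268).

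Reductases made up most of this enzyme RNA. Cbr2, Akr1a1 and Adh1 together took 65 to 77.7% of all counts assigned to the 51 genes in every mouse, with a median of 68.5%. As a whole the 51 genes held 0.578% to 0.948% of all counts. To compare genes, normalised read counts (CPM, the count relative to the library total) were divided by the length of the longest curated RefSeq transcript, since a longer transcript yields more reads. On that scale only Cbr2, Akr1a1 and Adh1 averaged over 500 CPM per kb, 22 other genes lay between 10 and 500, 12 between 1 and 10, and 6 above 0 but below 1. Because cDNA synthesis was primed from the poly(A) tail, levels per kb are approximate between genes of different length.

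Cbr2 had the highest level per length in all 9 mice. It encodes a carbonyl reductase of the short-chain dehydrogenase family, first known from lung, that reduces aliphatic and aromatic aldehydes and ketones with NADPH. The gene lies on the minus strand at chr11:120729489-120732114 of mm10, and its level ran from 1723 to 4228 CPM per kb, which placed it at rank 18 of 22863 genes with a transcript length. Akr1a1, the general aldehyde reductase (chr4:116636510-116651680, minus strand), ran from 919 to 1678 CPM per kb and ranked 35. The ranges of Cbr2 and Akr1a1 did not overlap.

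Adh1, the class I alcohol dehydrogenase (chr3:138260991-138290698, plus strand), followed with 402 to 935 CPM per kb and rank 104. Its highest mouse overlapped the lowest Akr1a1 mouse, although Akr1a1 was above Adh1 within each of the 9 mice. Below Adh1 the level dropped by several fold, to Cbr1, a cytosolic carbonyl reductase, at 85.1 to 115 CPM per kb. Adh1 and Cbr1 did not overlap.

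From Cbr1 downward, each neighbour in the order overlapped the next. Adh5, the glutathione-dependent formaldehyde dehydrogenase, ran from 68.7 to 95.9 CPM per kb and lay below Cbr1 in 8 of 9 mice. With only reads mapped to a single place this order reversed, with means of 116 for Adh5 and 92.2 for Cbr1, beside 92.3 for Aldh3a1. Of the reads counted for Cbr1, 66.6% mapped to a single place. The 3 most abundant ALDHs came next and could not be put in order: Aldh3a1, which oxidizes medium-chain and aromatic aldehydes, ran from 40.4 to 110 CPM per kb. Aldh3a2, the microsomal fatty aldehyde dehydrogenase, ran from 51.6 to 77.9 CPM per kb. Aldh2, the mitochondrial enzyme best known for oxidizing acetaldehyde, ran from 38.4 to 82.9 CPM per kb. Aldh3a1 lay above Aldh3a2 in 5 of 9 mice, and Aldh3a2 above Aldh2 in 2 of 9.

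**Figure D1:**
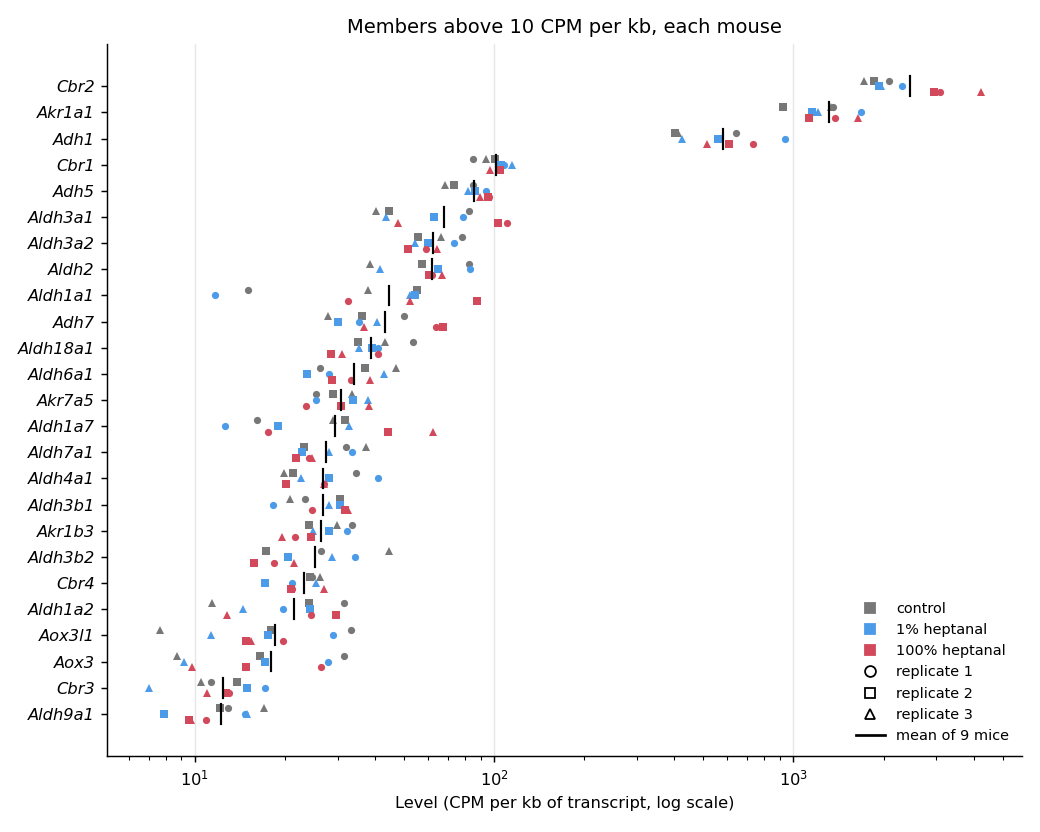
Level of the 25 genes above 10 CPM per kb (log scale) in each mouse, coloured by group, with the replicate given by the symbol and the mean of 9 mice by a black bar. Cbr2, Akr1a1 and Adh1 stand apart from the rest, and from Cbr1 downward the ranges of neighbouring genes overlap.

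Aldh1a1, a cytosolic enzyme that oxidizes retinaldehyde and aliphatic aldehydes, had the widest range of the abundant ALDHs, from 11.6 to 87.9 CPM per kb. Its lowest mice were the control and 1% mice of replicate 1. Adh7, the class IV alcohol dehydrogenase of epithelia, ran from 27.9 to 67.6 CPM per kb. Aldh18a1, which makes a proline precursor and is not a scavenger of free aldehydes, ran from 28.6 to 53.6, and Aldh6a1, an enzyme of valine breakdown, from 23.7 to 47. The set of the 12 highest genes held 11 of the same genes when ranked by CPM without length, and all 12 when only reads mapped to a single place were used. Divided by the length of all exons of a gene, 9 of the 12 stayed, while Adh5, Adh7 and Aldh6a1 gave way to Aldh1a7, Akr7a5 and Aldh3b2.

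Aldehyde oxidases were minor. Aox3l1, whose current symbol is Aox2, averaged 18.5 CPM per kb and Aox3 18.0, while Aox1 and Aox4 stayed below 1. The 4 genes lie side by side between 58029931 and 58380259 on chromosome 1. Summed over the 4 genes, the control mice of replicates 1, 2 and 3 gave 302, 164 and 77.1 CPM, so the oldest control mouse was highest and the youngest lowest. The 1% mice gave 262, 162 and 96.3 CPM and the 100% mice 214, 140 and 118 CPM, in the same order.

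The 6 Adh genes also form a cluster, on chromosome 3, and only some of its members were used. Adh1, Adh5 and Adh7 were abundant, Adh6a averaged 1.78 CPM per kb, and Adh4 and the pseudogene Adh6-ps1 had no count. Most hydroxysteroid-type Akr genes were silent as well: Akr1c6, Akr1c19, Akr1c20, Akr1c21, Akr1cl and Akr1d1 had no count in any mouse. For these 8 genes a count of 0 allows up to 3 counts, or 0.309 to 0.552 CPM depending on the mouse, and such limits cover counting error only. Aldh8a1 had 8 counts in the youngest 100% mouse and none elsewhere.

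Heptanal was compared with control by edgeR's quasi-likelihood test over all 14930 genes that passed the filter on low counts, 41 of the 51 enzymes among them. The other 10 were the 8 genes without counts, Akr1c12 and Aldh8a1. No enzyme passed an adjusted p of 0.05 in any of the 3 comparisons, with or without the replicate number as a block. Of all genes tested, 0% passed for 1% heptanal against control, 0.0134% for 100% against control and 0.0134% for 100% against 1%. With the block the shares were 0%, 0.322% and 0.0804%.

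At an unadjusted p below 0.05, 0 of 41 enzymes differed between 1% heptanal and control (0.797% of all genes), and 1 with the block (3.26%). For 100% heptanal against control 1 of 41 differed (4.17% of all genes), and 8 with the block (10.4%), of which 6 were higher and 2 lower. For 100% against 1% heptanal 3 differed (3.26%), and 6 with the block (10.4%). The median log2 fold change over the 41 enzymes was -0.09, -0.08 and 0.06 in these comparisons, beside -0.02, -0.03 and 0.01 over all genes tested. DESeq2 called 1 enzyme, Cbr2, higher at 100% than in control (0.456% of genes called), again Cbr2 with the block (1.89%), and Cbr2 and Aldh1a7 higher at 100% than at 1% with the block (1.41%). It called no enzyme in its other fits.

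Cbr2 had the largest difference relative to its error. Its level was 2127, 1895 and 1759 CPM in the control mice of replicates 1, 2 and 3, 2350, 1970 and 2001 CPM in the 1% mice, and 3142, 3012 and 4317 CPM in the 100% mice. Every 100% mouse lay above every control and every 1% mouse, whereas the 1% and control mice overlapped. The ratio of the 100% mouse to its control littermate was 1.48, 1.59 and 2.45. The log2 fold change of 100% over control was 0.85 (SE 0.22, n = 3 and 3) with an edgeR adjusted p of 0.733, and 0.85 (SE 0.18) with an adjusted p of 0.115 under the block. Against 1% heptanal it was 0.75 (SE 0.22), with adjusted p = 1, and 0.242 under the block. DESeq2's adjusted p for 100% against control was 0.0428 without and 0.00059 with the block. At 1% the log2 fold change over control was 0.10 (SE 0.22).

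Some Cbr2 reads do not map to a single place. The promoter of Cbr2 (GRCm38.p6, chr11:120731972-120732271, minus strand, from RefSeq) is shown because Cbr2 leads both the levels and the differences. Capitals mark the run ATAAAA, of the TATA type, which begins at the first base of the RefSeq transcript. The GENCODE start of the gene, at 120732114, lies upstream of this run, within the printed stretch.
Cbr2: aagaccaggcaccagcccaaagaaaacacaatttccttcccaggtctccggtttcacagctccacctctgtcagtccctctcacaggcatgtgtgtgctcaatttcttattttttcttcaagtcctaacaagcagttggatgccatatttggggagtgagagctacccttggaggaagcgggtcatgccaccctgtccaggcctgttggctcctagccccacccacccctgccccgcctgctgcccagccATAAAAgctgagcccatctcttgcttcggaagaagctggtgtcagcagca
Of the 1061 windows of 50 bases, the read length, in the Cbr2 transcript, 160 (15.1%) also occur in transcripts of the predicted gene Gm11771, and 77.3% of the reads counted for Cbr2 mapped to a single place. With those reads alone its log2 fold change of 100% over control was 0.85 again, and also with the block.

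**Figure D2:**
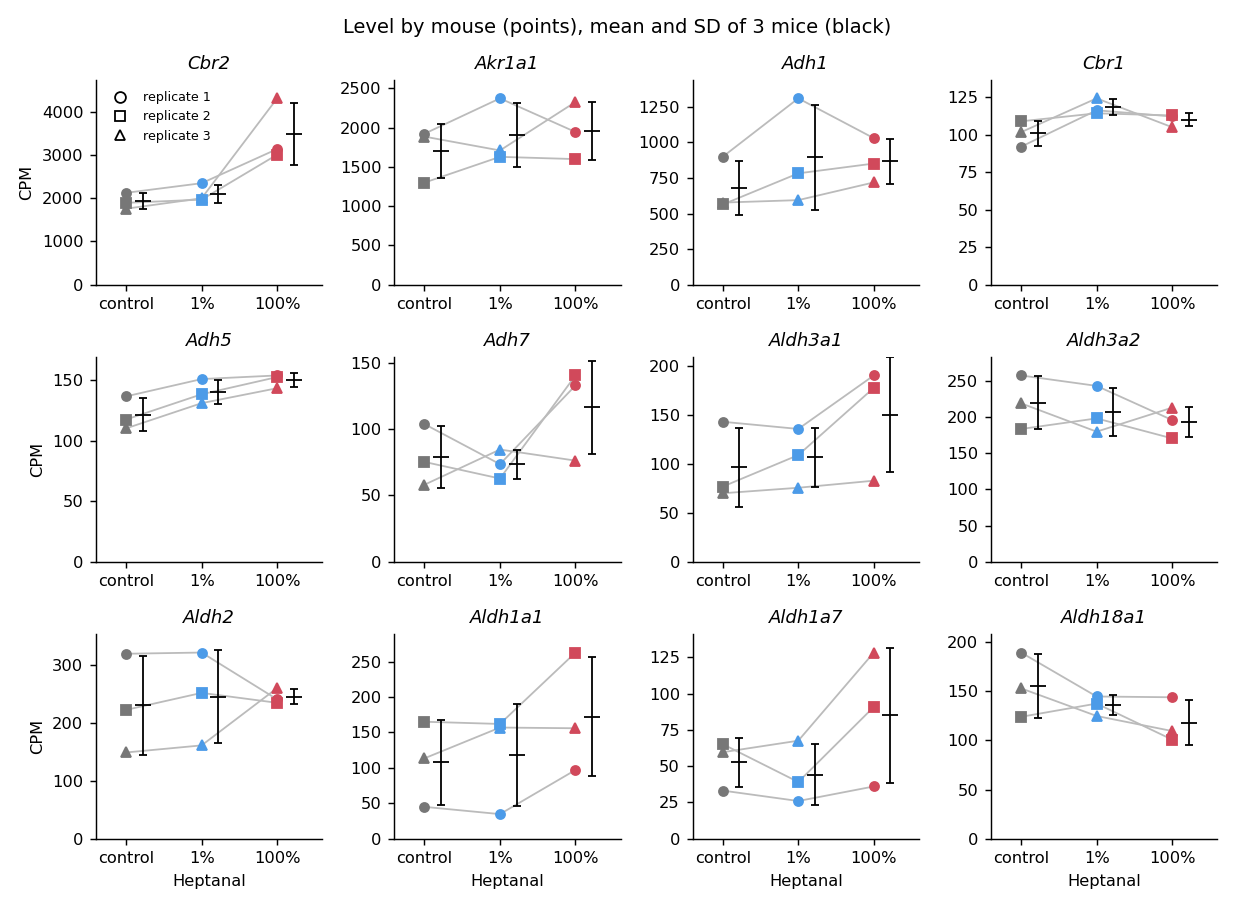
Level in CPM of 12 enzymes in each mouse by exposure, with the mean and SD of 3 mice in black and grey lines joining mice of the same replicate. Cbr2 was higher in all 3 mice at 100% heptanal than in any other mouse, and the groups overlap for Akr1a1, Adh1, Aldh3a2, Aldh2 and Aldh1a1.

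Cell type markers also differed in value between 100% heptanal and control. The 8 sustentacular markers were all above 0 in log2 fold change at 100% against control, with a median of 0.55, and the 5 mature OSN markers likewise, with a median of 0.72. Summed, the sustentacular markers ran from 5096 to 6868 CPM in control, 4974 to 6928 at 1% and 6405 to 9038 at 100% heptanal. Cyp2a5 was the largest part of that sum, with 3147 to 5163 CPM, and 3.97% of its reads mapped to a single place. The OSN markers ran from 4053 to 8695, 6442 to 8976 and 10592 to 14533 CPM, and Omp passed edgeR's adjusted p with the block (log2 fold change 1.11, adjusted p = 0.0311). No listed marker of either type was at 0 in any mouse, but the sustentacular markers Ermn and Sult1c1 stayed at or below 8.22 CPM in all replicate 1 mice.

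Cyp2g1, a cytochrome P450 of the sustentacular cells, had 808, 693 and 447 CPM in the control mice and 1005, 1072 and 1390 CPM in the 100% mice. The ratio of Cbr2 to Cyp2g1 was 2.63, 2.74 and 3.93 in control and 3.13, 2.81 and 3.10 at 100% heptanal, so it overlapped between the groups. The ratio to Cyp1a2, a further sustentacular P450, was 3.61, 4.14 and 4.79 in control and 4.56, 4.65 and 7.68 at 100%, and the ratio to Cyp2a5 0.631, 0.484 and 0.559 against 0.851, 0.583 and 1.09. Both were higher at 100% in each of the 3 replicates, with overlap between the groups. Of the reads counted for Cyp2g1, Cyp1a2 and Cyp2a5, 51.7%, 87.3% and 3.97% mapped to a single place. The Cyp2a5 values thus rest almost wholly on rescued reads. After scaling to the geometric mean of the OSN markers instead of the whole library, Cbr2 had a log2 fold change of 0.03, and after scaling to the sustentacular markers -0.15. These scalings put the median of all genes at -0.89 and -0.88, so relative to that median Cbr2 stayed above in both. Akr1a1, Adh1, Adh5, Adh7, Aldh1a1, Aldh1a7 and Aldh3a1, above 0 by library scaling, were below 0 by both and, like Cbr2, above that median. Among all 27 alternative settings, -0.15 was the only value of Cbr2 below 0 for 100% over control. The ratio of Cbr2 to the sustentacular geometric mean was 25.1, 45.9 and 18.3 in the replicate 1 mice of control, 1% and 100%. In the other mice it ran from 6.51 to 8.70. The 4 red blood cell markers were below 0, with sums from 1034 to 12169 CPM that were lowest in the youngest mouse of each group. All 4 markers of ensheathing glia and all 6 of Bowman's gland were below 0 as well (medians -0.39 and -0.28), although 1 of the latter was above 0 under the block. The other lists held markers on both sides of 0. In bulk RNA from a pS6 pull-down, a different number of cells of a type and a different amount of RNA per cell cannot be told apart. Nor can a different captured share of a cell type's RNA, which depends on phosphorylated S6. The part of each in these values was not tested.

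**Figure D3:**
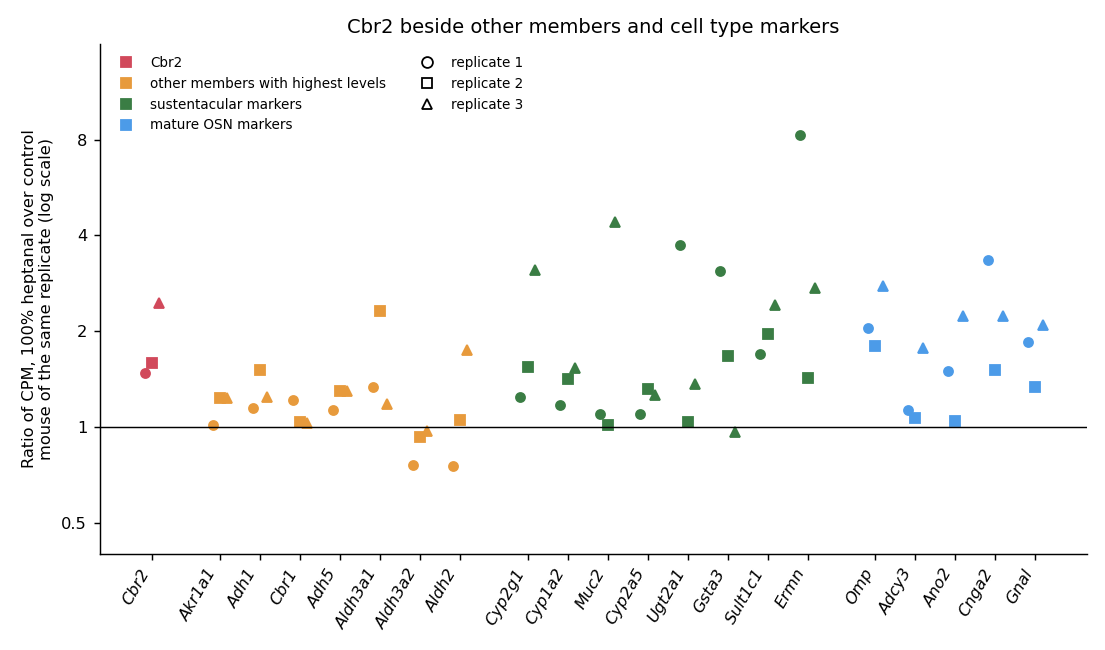
Ratio of CPM in each 100% heptanal mouse to the control mouse of the same replicate (log scale) for Cbr2, the 7 next most abundant enzymes, the 8 sustentacular and the 5 mature OSN markers. The Cbr2 ratios of 1.48, 1.59 and 2.45 lie within the span of the ratios of both marker lists.

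The other abundant reductases differed by less. Akr1a1 had 1923, 1300 and 1886 CPM in control, 2373, 1628 and 1709 at 1%, and 1945, 1599 and 2327 at 100% heptanal. These 3 groups overlapped throughout, and the log2 fold change of 100% over control was 0.19 (SE 0.27). Adh1 had 899, 564 and 577 CPM in control, 1310, 782 and 594 at 1%, and 1030, 852 and 719 at 100%. Within each replicate Adh1 was lowest in the control mouse, but mice of a group differed by more than the exposures did, with log2 fold changes over control of 0.39 (SE 0.35) at 1% and 0.35 (SE 0.35) at 100%.

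Adh5 had 137, 117 and 110 CPM in control, 151, 138 and 131 at 1%, and 154, 152 and 143 at 100% heptanal. The 100% mice did not overlap the control mice. Its log2 fold change of 0.30 (SE 0.16) had an adjusted p of 1, and of 0.445 under the block. Adh7 had 104, 75.2 and 58.0 CPM in control, 73.5, 62.7 and 84.6 at 1%, and 133, 140 and 76.2 at 100%. The youngest 100% mouse fell among the controls, and the log2 fold change was 0.56 (SE 0.29) over control and 0.70 (SE 0.29) over 1%, with block-adjusted p of 0.459 and 0.443.

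Counted over the tested enzymes, 2 lay above all control mice in every 100% mouse (Adh5 and Cbr2, beside 6.16% of all genes), and 2 below (Akr1b7 and Aldh9a1, beside 3.35%). For 1% against control Akr1b8 and Cbr1 lay above (3.29% of all genes) and Akr1b10 and Aldh1l2 below (1.21%). For 100% against 1% Cbr2 lay above (3.8%) and Akr1b3, Akr1b7 and Cbr1 below (5.08%). A count of 1 to 3 of 41 is near these shares. Of the reads counted for Akr1b3, 0.914% mapped to a single place. The Akr1b3 values thus rest almost wholly on rescued reads.

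Among the enzymes of oxidation tested, Aldh1a7, Aldh1a1 and Aldh3a1 had the highest log2 fold changes of 100% heptanal over control and Aldh3b2 the lowest. Aldh3a1 had 143, 76.8 and 70.0 CPM in control, 136, 109 and 75.6 at 1%, and 190, 178 and 82.8 at 100%. It was higher than its control littermate in each replicate, but the youngest 100% mouse stayed below the oldest control. Its log2 fold change was 0.64 (SE 0.40), with adjusted p = 1, and 0.62 (SE 0.20) with adjusted p = 0.313 under the block. Aldh3a2 and Aldh2, close to Aldh3a1 in level, showed no such order: Aldh3a2 averaged 220 CPM in control and 193 at 100%, and Aldh2 230 and 245. Aldh3b2, which oxidizes lipid-derived aldehydes, had 56.9, 37.4 and 96.1 CPM in control, 74.2, 44.2 and 62.2 at 1%, and 39.5, 34.0 and 46.3 at 100%. It was below its control littermate in each replicate, with overlap between the groups, and its log2 fold change was -0.69 (SE 0.37), with adjusted p = 1, and 0.456 under the block. Without the control mouse of replicate 3 it was -0.22. Of its reads 64.9% mapped to a single place.

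Aldh1a1 and Aldh1a7 are neighbouring genes of chromosome 19, transcribed from opposite strands (chr19:20492715-20643465, plus, and chr19:20692953-20727562, minus). Aldh1a1 had 45.1, 165 and 114 CPM in control, 34.8, 162 and 157 at 1%, and 97.1, 263 and 156 at 100%. The replicate 1 mouse was lowest in each group, and the 100% mouse was above its control littermate in all 3 replicates. The log2 fold change of 100% over control was 0.67 (SE 0.63) with adjusted p = 1, and 0.76 (SE 0.22) with adjusted p = 0.256 under the block. Without the 100% mouse of replicate 2 the first value was 0.22. Without the control mouse of replicate 1 it was 0.29, and without the control mouse of replicate 2 it was 1.09. Against 1% heptanal it was 0.62 (SE 0.63), and 0.75 (SE 0.22) under the block.

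Aldh1a7, a close relative of Aldh1a1, had 33.2, 65.2 and 59.6 CPM in control, 26.0, 39.1 and 67.6 at 1%, and 36.1, 90.9 and 128 at 100%. Here too the replicate 1 mice were lowest, and each 100% mouse was above the mice of its replicate. The log2 fold change over control was 0.68 (SE 0.50), with a block-adjusted p of 0.415, and 0.27 without the 100% mouse of replicate 3. Over 1% heptanal it was 0.99 (SE 0.50) with adjusted p = 1, and 0.91 (SE 0.22) with adjusted p = 0.26 under the block. The 1% mouse of replicate 2, with 39.1 CPM beside 65.2 in control, is the one whose library differed by GC content from its littermates. A block shared by the mice of a replicate leaves such a difference in place. Aldh1a1, of like GC content, had 162 CPM in that mouse beside 165 in control. Without the 100% mouse of replicate 3 the value over 1% was 0.59.

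These genes share sequence, so their counts are not fully separate. Their coding sequences of 1506 bases are 91.63% identical, with an identical run of 100 bases, longer than a read, at positions 757 to 856. The stretch from 742 to 861 of each open reading frame (from 1 at the start codon) is shown to make this visible, with the 3 differing bases in capitals.
Aldh1a1: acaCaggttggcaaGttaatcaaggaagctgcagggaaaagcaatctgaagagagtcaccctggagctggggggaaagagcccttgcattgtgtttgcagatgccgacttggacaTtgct
Aldh1a7: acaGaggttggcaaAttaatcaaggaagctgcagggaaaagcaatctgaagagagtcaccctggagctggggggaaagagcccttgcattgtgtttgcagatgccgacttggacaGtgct
Of the 50-base windows of their transcripts, 151 are the same in both, and 79.2% and 79.1% of their reads mapped to a single place. The remaining reads were divided in the ratio of the uniquely mapped ones: that ratio of Aldh1a1 to Aldh1a7 was 1.36, 2.53 and 1.90 in control, 1.34, 4.14 and 2.32 at 1%, and 2.69, 2.89 and 1.22 at 100% heptanal, with no order by exposure. With uniquely mapped reads alone the log2 fold changes at 100% over control and over 1% were 0.66 for Aldh1a1 and 0.97 for Aldh1a7, respectively.

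The promoters printed here are alike as well. The RefSeq promoters (GRCm38.p6, chr19:20601718-20602017, plus strand, and chr19:20727507-20727806, minus strand) are given with the runs of 12 or more bases that they share, in the same order, in capitals. That of Aldh1a1 lies inside the GENCODE span of the gene, which begins at 20492715. It was taken as the RefSeq promoter of Aldh1a1 with the highest start position.
Aldh1a1: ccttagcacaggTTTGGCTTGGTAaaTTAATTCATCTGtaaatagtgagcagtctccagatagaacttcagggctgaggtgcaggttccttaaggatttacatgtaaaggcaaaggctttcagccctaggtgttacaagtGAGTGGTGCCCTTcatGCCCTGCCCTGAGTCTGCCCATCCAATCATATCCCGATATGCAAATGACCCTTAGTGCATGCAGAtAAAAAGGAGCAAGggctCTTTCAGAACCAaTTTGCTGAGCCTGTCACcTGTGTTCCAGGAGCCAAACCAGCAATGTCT
Aldh1a7: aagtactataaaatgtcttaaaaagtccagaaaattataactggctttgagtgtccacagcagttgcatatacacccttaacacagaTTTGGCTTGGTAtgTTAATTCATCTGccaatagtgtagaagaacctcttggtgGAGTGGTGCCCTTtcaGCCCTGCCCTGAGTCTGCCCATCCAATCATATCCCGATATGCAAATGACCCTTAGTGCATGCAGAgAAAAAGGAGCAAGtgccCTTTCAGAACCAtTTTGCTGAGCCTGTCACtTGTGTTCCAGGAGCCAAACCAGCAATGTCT
The 8 shared runs cover 174 of 300 bases, the longest with 65. Both hold the octamer ATGCAAAT starting at -56 from the transcript start, a motif searched after the sequences were seen. It occurs on either strand in 1.74% of the 32851 promoters of that table, and in 4 of the 45 promoters of the 42 enzymes that the table holds. The core of the antioxidant response element (TGACNNNGC) is in none of these 3 printed promoters, and is in 11.1% of the enzymes' promoters and 12.4% of all. The core of the dioxin response element (GCGTG) is in 31.1% and 32.4%, and the run ATAAAA in 24.4% and 18.5%. The core of Olf1/Ebf1 sites is in none of the enzymes' promoters and in 0.904% of all. All motifs were searched on both strands and none of the matches in the printed promoters overlapped another.

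**Figure D4:**
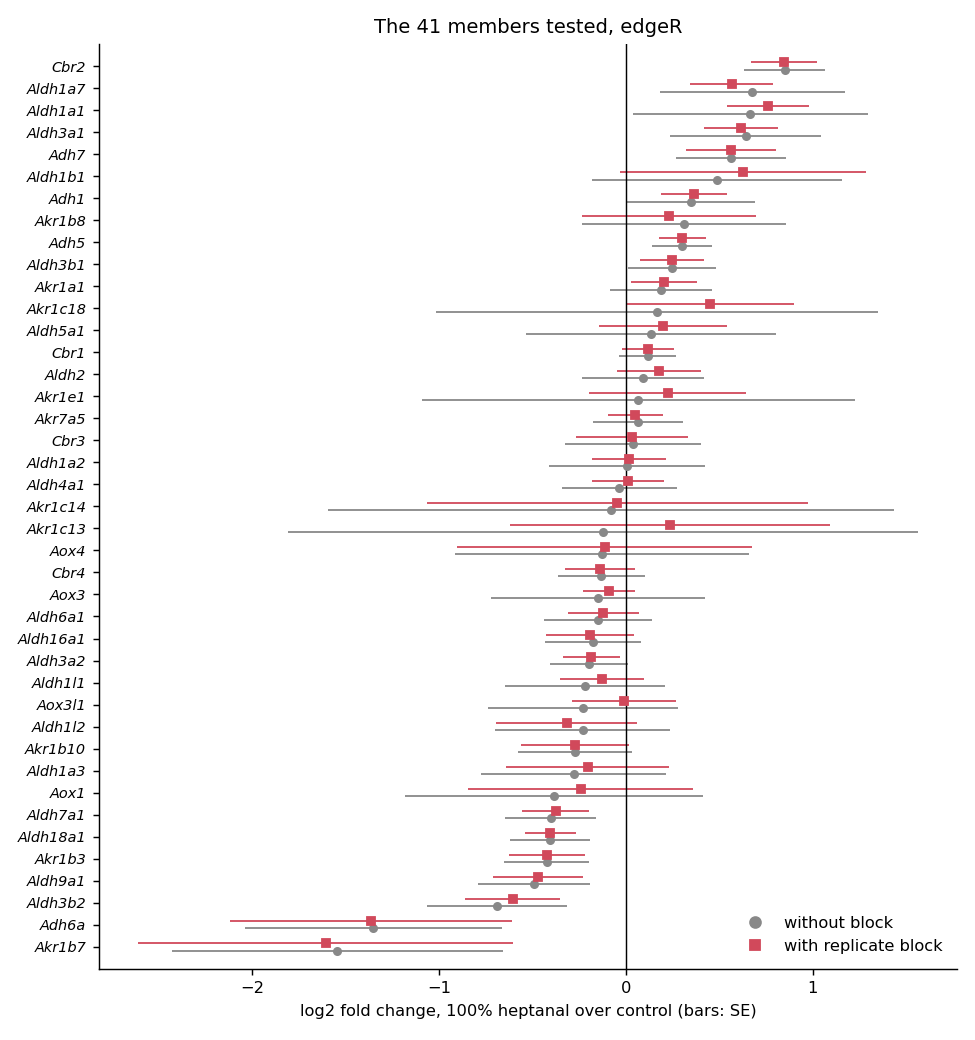
Log2 fold change of 100% heptanal over control with its SE for the 41 enzymes tested by edgeR, without the block in grey and with it in red. Cbr2 is at the top with 0.85 in both fits, and the block shortens the SE of Aldh1a1 from 0.63 to 0.22 and that of Aldh3a1 from 0.40 to 0.20.

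Among enzymes of dedicated substrates most log2 fold changes at 100% heptanal were below 0, and none passed the test. In this group of 9, which serve amino acid, folate and neurotransmitter pathways, 1 had a log2 fold change over control above 0. The median was -0.22, beside -0.03 over all genes tested. Under the block Aldh5a1 and Aldh4a1 were above 0, with folds over control of 1.15 and 1.01. Aldh18a1 had 189, 124 and 153 CPM in control, 145, 137 and 125 at 1%, and 144, 101 and 109 at 100%. It was below its control littermate in each replicate, with a log2 fold change of -0.40 (SE 0.21) and a block-adjusted p of 0.354. Of the 9 enzymes listed for oxidation of aliphatic aldehydes 6 were above 0 (median 0.25), of the 4 alcohol dehydrogenases 3 (median 0.32), of the 7 aldehyde and aldose reductases 4 (median 0.06), and of the 4 carbonyl reductases 3 (median 0.08).

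Summed over their genes, the carbonyl reductases had 2260, 2047 and 1902 CPM in control, 2510, 2120 and 2162 at 1%, and 3293, 3163 and 4465 at 100% heptanal. Cbr2 alone made most of that sum, and Cbr1 stayed between 92.0 and 124 CPM in all mice. Without Cbr2 the sum over all the other enzymes was 5209, 3887 and 4407 CPM in control and 5152, 4727 and 5163 at 100%, with overlap.

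At 1% heptanal the lowest p-values without the block were those of scarce genes. With the block the abundant Adh1 was also among the 3 lowest, with a fold of 1.25 over control. Aldh1l2, a mitochondrial enzyme of folate metabolism, had 114, 102 and 148 counts in control and 24, 78 and 111 at 1%. These correspond to 17.8, 14.3 and 17.9 CPM against 3.35, 14.3 and 11.4 CPM, so the difference was large in replicate 1 and small in replicate 2. Its log2 fold change was -0.86 (SE 0.47), and -1.01 (SE 0.39) with the block. Akr1b8, an aldose reductase-like enzyme, had 3.90, 1.89 and 3.58 CPM in control and 7.92, 6.01 and 4.28 at 1%, without overlap, with a log2 fold change of 0.94 (SE 0.55). Both adjusted p-values were 1.

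Akr1b7, another aldose reductase-like enzyme, was close to the detection limit. It had 9, 4 and 5 counts in control, 5, 33 and 28 at 1%, and 2, 2 and 3 at 100% heptanal. The high values were those of 2 of the 3 mice at 1%. Its log2 fold change was 1.82 (SE 0.82) for 1% over control and -3.36 (SE 0.89) for 100% over 1%, values that depend on the small offset added to such counts, with an adjusted p of 1 each, and of 0.344 for the latter under the block. Adh6a had 32, 13 and 14 counts in control, 13, 23 and 35 at 1%, and 8, 4 and 16 at 100%. The 100% and control mice overlapped, with a log2 fold change of -1.35 (SE 0.69).

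For some enzymes the replicate mattered more than the exposure. Akr1e1, a reductase of anhydrofructose, had 1.25, 0.98 and 2.28 CPM in the replicate 1 mice of the 3 groups, and between 5.33 and 20.4 CPM in the other 6. Akr1c18 had 0.31, 0.56 and 1.26 CPM in replicate 1 and 7.31 to 10.7 elsewhere. Aldh5a1, the succinate semialdehyde dehydrogenase, had 5.47, 6.00 and 7.54 CPM in replicate 1 and 7.91 to 22.5 elsewhere, the lowest of these in the 1% mouse of replicate 2. These transcripts have GC contents of 43.4, 43.9 and 48.3%, and those of Aldh1a1 and Aldh1a7 46.1 and 46.3%. Akr1a1, at 47.4%, was not lower in replicate 1. The GC content of Cbr2 is 56.9%, and its replicate 1 mice averaged 2540 CPM beside 2492 in the others. In the replicate 1 mice age, litter and library quality coincide and cannot be told apart here. In replicate 2 the GC-linked difference did not follow age and litter. The 1% mouse showed it (r = 0.378), and the control and 100% mice of that replicate did not (0.0523 and -0.00268). Its cause was not tested.

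**Figure D5:**
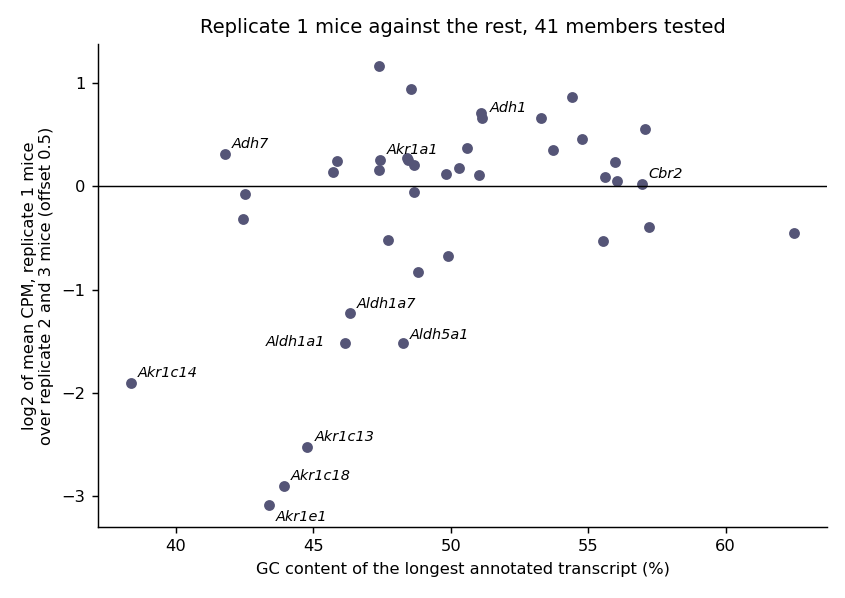
Log2 ratio of the mean CPM of the 3 replicate 1 mice to that of the other 6 against the GC content of the transcript, for the 41 enzymes tested. Akr1e1, Akr1c18, Akr1c13, Akr1c14, Aldh5a1, Aldh1a1 and Aldh1a7, with GC contents from 38.4 to 48.3%, lie below -1, and Cbr2, Akr1a1 and Adh1 lie above 0. Other genes in that GC range do not lie low: Adh7, at 41.8%, is at 0.32 and Aox3, at 47.4%, at 1.17.

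Other genes around aldehyde metabolism did not pass the test either. Of 20 further carbonyl oxidoreductases 17 were tested, and 0 passed at 100% heptanal in either fit, with a median log2 fold change of 0.04 over control. Of 12 genes that activate and oxidize medium-chain fatty acids, the next step after an ALDH, 10 were tested and 0 passed, with a median of -0.11. The 5 genes of molybdenum cofactor synthesis, on which aldehyde oxidases depend, had a median of 0.31, also with 0 passed. None of the 3 tested AhR targets passed.

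The 7 tested targets of NRF2, the factor that switches on genes of electrophile defence, had a median of 0.25, and 0 passed. Nqo1, a quinone reductase among them, had 83.9, 113 and 102 CPM in control, 46.0, 87.3 and 116 at 1%, and 194, 249 and 209 CPM at 100% heptanal. The 100% mice were above all others, with a log2 fold change of 1.12 (SE 0.29) over control, adjusted p = 0.733, and 0.0697 under the block. Of the other targets, Srxn1 averaged 42.1 CPM in control and 91.3 at 100%, with every 100% mouse above all others. Txnrd1, Gclm and Gclc also averaged higher at 100% than in control. Hmox1 and Slc7a11 averaged lower, with 3.73 and 4.09 CPM in control and 2.64 and 3.01 at 100%. Aldh3a1 and Cbr1 are often listed beside Nqo1 as genes of the same defence. The values of Aldh3a1 in the same mice are given above. Cbr1 had 92.0, 109 and 102 CPM in control, 116, 114 and 124 at 1%, and 112, 113 and 105 at 100%. Unlike Nqo1, its mean was highest at 1%.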

How the data were processed

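The deposited tables hold 1 mouse each. Per the study's methods, poly(T)-primed cDNA of pS6-immunoprecipitated mRNA was amplified by PCR for 16 cycles without molecular identifiers, sequenced as 50-base reads, aligned to mm10 with Bowtie and counted with BEDTools. The authors deposited whole counts of reads mapped to a single place and, in another column, estimated counts that also include rescued reads mapped to several places. Columns of these tables are unnamed, and what each holds was read from its values and the methods. The estimated counts were used for levels (CPM of the library total) and, rounded, for tests. Intervals and floors cover counting error only.

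Tests used edgeR 4.0.16 in R 4.3.3 (quasi-likelihood, TMM, filterByExpr, 3 groups, Benjamini-Hochberg over 14930 genes), with DESeq2 1.42.0, the replicate block, other scalings, filters, unique reads and left-out mice as alternatives. The SE of a log2 fold change is its value over the square root of the F statistic. Same-numbered mice of different groups deviated together (r from 0.155 to 0.73 over 14930 genes), and the labels give them the same age. For differently numbered mice of different groups r ran from -0.746 to 0.449, so the 2 ranges overlapped. The scripts were tested on simulated counts. No pair of libraries of a group agreed within sampling noise. Positions are those of GENCODE vM21 (mm10) and matched all 51 genes, Aox3l1 through a synonym. Transcript lengths are the longest curated RefSeq transcripts, a choice made after the summed exons were seen to include retained introns. Promoters and their build are from RefSeq.

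The genes and lists were chosen with earlier results of these data known. Genes were named if among the 12 highest per length, past the threshold in any fit, or among the 3 lowest unadjusted p-values of a comparison in either edgeR fit, plus genes without counts. Others (Aldh3b2, Aldh4a1, Aldh8a1, Aldh9a1, Akr7a5, Akr1b3, Akr1b10, Akr1c12, Akr1c13, Akr1c14, Akr1c18, Akr1e1, Aldh5a1, the Aox genes, Nqo1 and the other NRF2 targets) were named after their values were seen. Each sample is 1 mouse, and p-values measure the spread between mice.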

Additional observations from a re-analysis of the deposited data

How the results depend on the processing

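With the replicate block edgeR again called 0 enzymes, and the median log2 fold change over the tested enzymes for 100% against 1% was 0.11 in place of 0.06. DESeq2 called 1 enzyme higher for 100% against control, and with the block 1 there and 2 for 100% against 1%, where its median was 0.11. For 100% against 1% the median was 0.014 with at least 50 counts in 3 mice, 0.12 with uniquely mapped reads and 0.13 with those and the block, which gave 0.019 for 100% against control. Leaving out 1 mouse at a time gave medians from -0.21 to -0.0097 for 1% against control, -0.085 to 0.039 for 100% against control and -0.0088 to 0.21 for 100% against 1%, with 0 enzymes called each time. Leaving out the mice of replicate 1 under the block gave 0.022 for 100% against control and 0.19 for 100% against 1%. With 1 mouse left out, the log2 fold change for 1% against control ranged from -0.054 to 0.17 for Cbr2 and from -0.076 to 0.63 for Adh1, below 0 without the 1% mouse of replicate 1. Over all 27 settings the highest values were 0.63 and 1.02, both by the sustentacular scaling.

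Scaling by cell markers moved all genes: under the block the median of all genes was -0.80 for 100% against control and -1.10 for 100% against 1% by the sustentacular markers, and -0.80 and -0.84 by the OSN markers. Scaling by the 5 mature OSN markers gave, for 100% against control, a median of -0.95 and a changed sign of the log2 fold change for Akr1a1 -0.71, Adh1 -0.54, Aldh1a1 -0.17, Aldh1a7 -0.12, Aldh3a1 -0.28, Adh5 -0.57 and Adh7 -0.32. Scaling by the 5 mature OSN markers gave, for 100% against 1%, a median of -0.86 and a changed sign of the log2 fold change for Cbr2 -0.15, Aldh1a1 -0.14 and Adh7 -0.29. Scaling by the 8 sustentacular markers gave, for 1% against control, a median of 0.42. Scaling by the 8 sustentacular markers gave, for 100% against control, a median of -0.89 and a changed sign of the log2 fold change for Cbr2 -0.15, Akr1a1 -0.78, Adh1 -0.61, Aldh1a1 -0.0085, Aldh1a7 -0.29, Aldh3a1 -0.35, Adh5 -0.63 and Adh7 -0.40. Scaling by the 8 sustentacular markers gave, for 100% against 1%, a median of -1.30 and a changed sign of the log2 fold change for Cbr2 -0.78, Aldh1a7 -0.35, Aldh1a1 -0.31 and Adh7 -0.59. The sustentacular scaling with the replicate block gave, for 1% against control, a median of 0.28. The sustentacular scaling with the replicate block gave, for 100% against control, a median of -0.77, 18 of 41 enzymes called lower (43.9%, beside 38.6% of all genes) and a changed sign of the log2 fold change for Akr1a1 -0.59, Adh1 -0.43, Aldh1a1 -0.060, Aldh1a7 -0.20, Aldh3a1 -0.19, Adh5 -0.49 and Adh7 -0.23. The sustentacular scaling with the replicate block gave, for 100% against 1%, a median of -1.01, 27 of 41 called lower (65.9%, beside 65.2% of all genes) and a changed sign of the log2 fold change for Cbr2 -0.38, Aldh1a7 -0.19, Aldh1a1 -0.36 and Adh7 -0.45. The OSN scaling with the replicate block gave, for 100% against control, a median of -0.76, 5 of 41 called lower (12.2%, beside 17.4% of all genes) and a changed sign of the log2 fold change for Akr1a1 -0.60, Adh1 -0.44, Aldh1a1 -0.056, Aldh1a7 -0.19, Aldh3a1 -0.19, Adh5 -0.49 and Adh7 -0.22. The OSN scaling with the replicate block gave, for 100% against 1%, a median of -0.77, 15 of 41 called lower (36.6%, beside 30.5% of all genes) and a changed sign of the log2 fold change for Cbr2 -0.13, Aldh1a1 -0.083 and Adh7 -0.17. Scaling by 4 sustentacular markers with the replicate block gave, for 1% against control, a changed sign of the log2 fold change for Cbr2 -0.036. Scaling by 4 sustentacular markers with the replicate block gave, for 100% against control, a median of -0.59 and a changed sign of the log2 fold change for Akr1a1 -0.40, Adh1 -0.23, Aldh1a7 -0.017 and Adh5 -0.27. Scaling by 4 sustentacular markers with the replicate block gave, for 100% against 1%, a median of -0.37. The last pair of scalings was added after the data were seen. The cause of these differences was not tested. Counts of genes such as Akr1b7 and Adh6a were small in every mouse, which limits the precision of their fold changes.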
